A study of Mus musculus with 8 samples.

Results

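The 9 genes described here encode the enzymes that write, remove and read methyl groups on CpG cytosines: the DNA methyltransferase genes Dnmt1, Dnmt3a, Dnmt3b and Dnmt3l, the TET dioxygenase genes Tet1, Tet2 and Tet3, and Uhrf1 and Mbd2, whose products bind methylated DNA. They were taken by name, and all 9 matched a row among the 55414 Ensembl genes of the deposited table. Total RNA of mouse testis had been sequenced in 4 samples labelled as valine treatment and in 4 labelled as control. Valine is a branched-chain amino acid. The labels gave no strain, age, dose, route or duration. They did not say whether the samples came from separate mice either, so a p-value here reflects the scatter of these libraries, part of which may be technical. Expression was given as FPKM (fragments scaled to transcript length and to the mapped fragments of a library), and the series title names nucleic acid methylation as a question of the study.

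DNA methylation in mammals sits mainly on cytosines that precede a guanine. Dnmt1 copies the pattern onto the new strand after replication, guided by Uhrf1, which recognises the hemimethylated site. Dnmt3a and Dnmt3b place methylation on unmethylated DNA, and Dnmt3l has no catalytic activity of its own but stimulates both and is needed for methylation in male germ cells of the mouse. TET enzymes oxidise methylcytosine, which leads to its loss through replication or base excision repair, and Mbd2 binds methylated CpG and recruits the NuRD repressor complex. Spermatogonia and early spermatocytes replicate their DNA in the testis, while spermatids do not divide.

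Promoter windows are shown for Dnmt1, the methyltransferase gene that passed the test described further on, for Uhrf1, its partner, and for Dnmt3l, the germ cell cofactor, because their CpG content differs within and between genes. The windows hold 250 bases before and 50 bases after each annotated transcript start, from RefSeq on GRCm38.p6, an older assembly than the GRCm39 of the deposited values. Windows of 300 bases were matched for 8 of the 9 genes, all but Mbd2. Capitals mark each CG dinucleotide, the substrate of these enzymes. Across 32851 mouse promoter windows of this length the median CG count was 7 and the quartiles were 3 and 20. The 3 Dnmt1 starts, read on the minus strand and listed from the most upstream, lie at chr9:20959839-20960138, chr9:20952930-20953229 and chr9:20952574-20952873, the downstream Uhrf1 start on the plus strand at chr17:56304063-56304362 and the upstream Dnmt3l start on the plus strand at chr10:78042037-78042336.
Dnmt1 upstream start: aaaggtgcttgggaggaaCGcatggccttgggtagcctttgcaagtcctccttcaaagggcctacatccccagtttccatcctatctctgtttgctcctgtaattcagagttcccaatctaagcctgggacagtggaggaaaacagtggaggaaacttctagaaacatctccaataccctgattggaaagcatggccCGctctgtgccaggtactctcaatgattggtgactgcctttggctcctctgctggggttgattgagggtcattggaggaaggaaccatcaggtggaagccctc
Dnmt1 middle start: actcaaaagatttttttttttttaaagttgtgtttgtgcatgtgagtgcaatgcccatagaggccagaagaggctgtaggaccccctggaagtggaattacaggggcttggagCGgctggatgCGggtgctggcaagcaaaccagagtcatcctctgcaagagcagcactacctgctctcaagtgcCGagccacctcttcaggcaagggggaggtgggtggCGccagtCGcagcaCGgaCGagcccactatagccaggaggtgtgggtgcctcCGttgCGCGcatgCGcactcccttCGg
Dnmt1 downstream start: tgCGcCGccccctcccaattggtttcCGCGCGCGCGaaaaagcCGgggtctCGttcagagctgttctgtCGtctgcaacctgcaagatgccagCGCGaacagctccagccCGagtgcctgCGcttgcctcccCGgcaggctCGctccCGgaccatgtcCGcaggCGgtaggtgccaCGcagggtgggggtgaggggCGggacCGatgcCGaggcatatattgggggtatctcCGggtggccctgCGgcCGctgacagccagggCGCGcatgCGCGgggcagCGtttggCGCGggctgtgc
Uhrf1 downstream start: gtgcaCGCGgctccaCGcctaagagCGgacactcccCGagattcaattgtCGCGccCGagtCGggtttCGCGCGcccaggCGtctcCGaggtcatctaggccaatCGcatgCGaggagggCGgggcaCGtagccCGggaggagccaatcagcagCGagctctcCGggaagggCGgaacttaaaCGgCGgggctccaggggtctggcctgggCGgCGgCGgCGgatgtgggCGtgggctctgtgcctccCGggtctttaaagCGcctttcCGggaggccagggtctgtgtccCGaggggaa
Dnmt3l upstream start: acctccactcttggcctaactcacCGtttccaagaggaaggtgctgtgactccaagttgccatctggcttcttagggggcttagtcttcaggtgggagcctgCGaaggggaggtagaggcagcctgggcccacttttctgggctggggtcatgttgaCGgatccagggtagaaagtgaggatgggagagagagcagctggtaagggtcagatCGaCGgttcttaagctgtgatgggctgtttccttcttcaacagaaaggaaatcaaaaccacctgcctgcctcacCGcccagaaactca

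The 3 Dnmt1 windows held 2, 12 and 33 CG dinucleotides in the order printed, so the starts of this gene spanned the range from CpG-poor to CpG-rich. The Uhrf1 windows held 12 and 33, of which the second is shown. The 3 windows of Dnmt3l held 6, 4 and 3, all below the median of mouse promoters. Dnmt3a (46, 47 and 18), Dnmt3b (30), Tet1 (17), Tet2 (57) and Tet3 (22) lay above that median in every window. The letters TTTNNCGC, which cover the E2F consensus of genes switched on for DNA replication, were searched on both strands with overlapping matches counted. They occurred 3 times in the downstream Dnmt1 window, among them TTTGGCGC near its end, and once in each of the Uhrf1 windows. They were in no other window of these genes and in 5.17% of all mouse windows. The GC box letters GGGCGG, searched the same way, were in 35.7% of all windows and occurred 2 times in the downstream Dnmt1 window and 3 times in the Uhrf1 window shown. The deposited values are sums over a gene, so they do not tell which start was used.

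The 9 genes stood in the same order of FPKM in valine and in control testes: Uhrf1, Mbd2, Dnmt1, Dnmt3l, Dnmt3b, Dnmt3a, Tet3, Tet2 and Tet1. Uhrf1 averaged 67.5 ± 4.45 FPKM in valine testes and 64.7 ± 3.22 FPKM in control testes (mean ± SD, n = 4 each here and below), and Tet1, at the other end, 0.218 ± 0.0723 FPKM and 0.238 ± 0.101 FPKM. Neighbours in this order were apart in the ranges over the samples of a group, with 1 exception: in valine testes Dnmt3l (2.39 to 9.07 FPKM) overlapped Dnmt3b (3.63 to 4.27 FPKM), so these genes did not differ beyond their spread there. Maintenance genes and the methyl-CpG reader were the abundant transcripts, the de novo methyltransferases were scarcer, and all 3 TET genes were at the low end.

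Of the 7 genes that passed a filter at a mean of 1 FPKM, Dnmt1 fell and Mbd2 rose in valine testes, and the other 5 did not pass the test. The test was limma on log2(FPKM + 1) across 22077 genes with Benjamini-Hochberg adjustment, called at an adjusted p below 0.05, and all changes below are valine minus control on that scale, where the added 1 makes low genes seem to change less than they did. It called 8.73% of all tested genes, 4.41% as lower and 4.32% as higher. Tet1 and Tet2 were below the filter and are low genes here, so no member of the TET family other than Tet3 entered the test. The 7 tested members had a median change of -0.13, and all tested genes a median of 0.02.

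Dnmt1, the maintenance methyltransferase, had 19.4, 20.4, 16.9 and 19.6 FPKM in valine replicates 1 to 4, against 27.2, 22.5, 26.7 and 26.4 FPKM in control replicates 1 to 4. The highest valine sample lay below the lowest control sample. The means were 19.1 ± 1.49 FPKM in valine testes and 25.7 ± 2.16 FPKM in control testes, a log2 change of -0.41 ± 0.083 (SE), or a 1.33-fold fall (limma adjusted p = 0.0217). Groups that did not overlap in the downward direction were found for 9.39% of all tested genes. The call was lost without any 1 of 4 libraries: the limma adjusted p was 0.0675, 0.0515 and 0.0503 without control replicate 1, 3 or 4 and 0.0562 without valine replicate 1, with changes of -0.38, -0.39, -0.40 and -0.42.

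Dnmt1 has a long exon model of 7377 bp, and long genes tended to be lower in valine testes. In the longest of 5 equal bins of the tested genes (5785 to 41155 bp) 8.84% were called lower and 1.18% higher, with a median change of -0.10. With a smooth trend on exon length removed from each sample, Dnmt1 had a log2 change of -0.31 and was past the threshold no longer (limma adjusted p = 0.0749). With a trend on GC content removed it was still past it (-0.39, limma adjusted p = 0.0231), as it was with totals set equal (-0.52, limma adjusted p = 0.00834).

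Uhrf1, which brings Dnmt1 to hemimethylated CpG, did not follow Dnmt1. It had 63.0, 69.1, 72.9 and 64.9 FPKM in valine testes, against 66.1, 61.4, 68.5 and 62.7 FPKM in control testes, and the groups overlapped. The log2 change was 0.06 ± 0.062 (SE, limma adjusted p = 0.596), and it was -0.06 with equal totals and -0.01 with quantile normalisation. The ratio of Dnmt1 to Uhrf1 FPKM within a sample was 0.309, 0.295, 0.232 and 0.302 in valine testes and 0.412, 0.367, 0.390 and 0.421 in control testes. All 4 valine ratios lay below all 4 control ratios, as the Dnmt1 values alone did. The ratio of Dnmt1 to Pcna, the replication clamp that also binds Dnmt1, was 0.227 ± 0.0159 in valine and 0.366 ± 0.0339 in control testes and likewise did not overlap. Pcna itself averaged 84.3 FPKM in valine and 70.4 FPKM in control testes (limma adjusted p = 0.101), which widens the gap of this ratio. How many gene pairs separate in this way was not counted. A single factor for a whole library cancels in such ratios, but a trend on exon length does not. The exon models of Uhrf1 (4259 bp) and Pcna (2400 bp) are shorter than that of Dnmt1, and the ratios were not corrected for length.

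**Figure D1:**
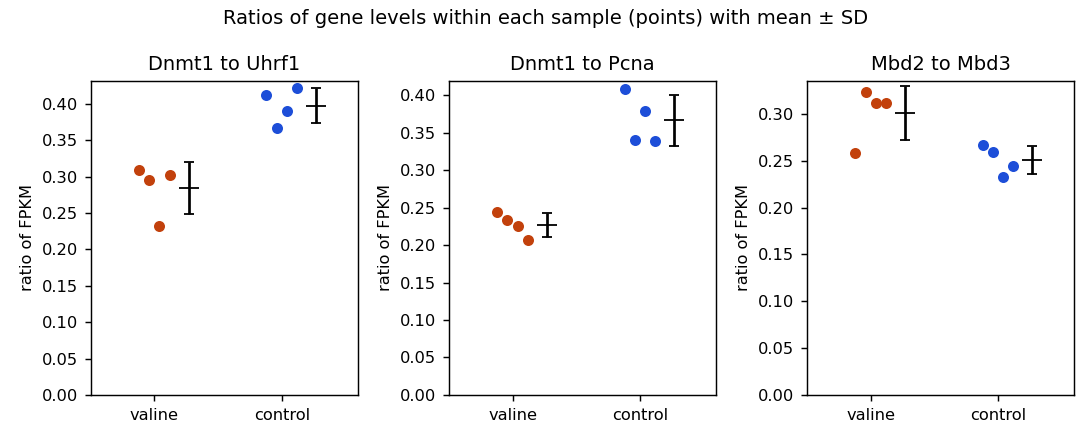
Ratios of FPKM within each testis sample (vertical axes, no unit) for Dnmt1 to Uhrf1, Dnmt1 to Pcna and Mbd2 to Mbd3, with valine left of control, points for the 4 samples of a group and bars for the mean ± SD. The Dnmt1 ratios lie lower in every valine sample, from 0.232 to 0.309 against 0.367 to 0.421 for Dnmt1 to Uhrf1, while the ratio of Mbd2 to Mbd3 overlaps between the groups.

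Mbd2, the methyl-CpG reader, had 42.8, 47.4, 47.0 and 52.2 FPKM in valine testes, against 37.5, 37.5, 33.7 and 36.0 FPKM in control testes. The lowest valine sample was above the highest control sample, a pattern that 8.99% of all tested genes had in the upward direction. The means were 47.4 ± 3.83 FPKM in valine testes and 36.2 ± 1.79 FPKM in control testes, a log2 change of 0.38 ± 0.070 (SE), or a 1.30-fold rise (limma adjusted p = 0.0164). The gene kept its call with any single library left out (limma adjusted p of 0.0247 to 0.0434), with equal totals (0.26, limma adjusted p = 0.0426) and with the length trend removed (0.40, limma adjusted p = 0.0165). Its exon model of 3214 bp is in the middle of the 5 length bins, in which 4.82% of genes were called higher and 4.50% lower.

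Mbd3, which stands in the place of Mbd2 in a separate form of NuRD and in mammals binds methylated CpG poorly, was more abundant and did not pass the test. It averaged 157.7 ± 10.3 FPKM in valine and 144.5 ± 2.75 FPKM in control testes (limma adjusted p = 0.191). The ratio of Mbd2 to Mbd3 was 0.259, 0.323, 0.312 and 0.312 in valine testes and 0.266, 0.259, 0.232 and 0.245 in control testes. Valine replicate 1 lay within the control range, so this ratio overlapped.

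**Figure D2:**
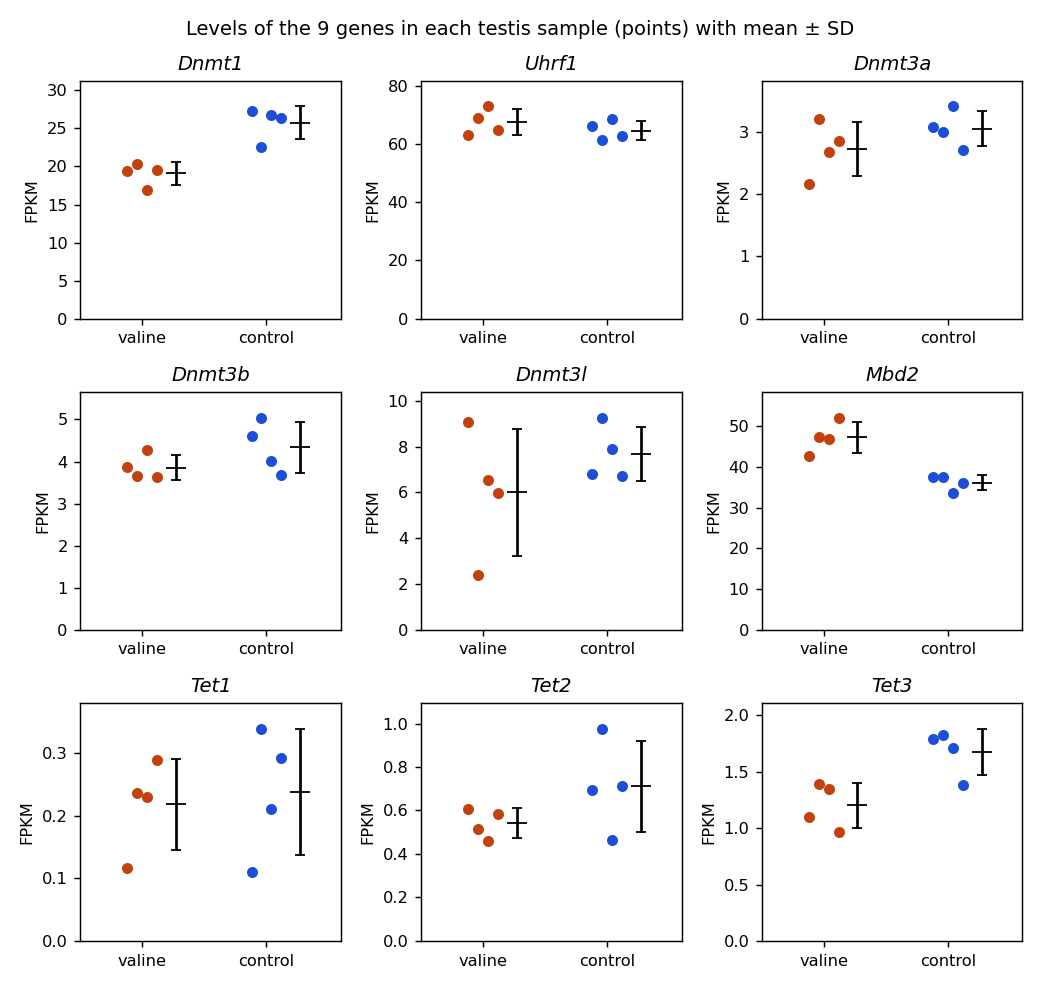
FPKM of the 9 genes (vertical axes, each from 0 on its own scale) in the 4 valine and the 4 control testis samples, shown as points in replicate order, with bars for the mean ± SD. Dnmt1 is lower and Mbd2 higher in every valine sample, and the other 7 genes overlap between the groups.

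The de novo methyltransferases did not pass the test. Dnmt3a had 2.16, 3.21, 2.68 and 2.85 FPKM in valine testes, against 3.08, 3.005, 3.41 and 2.71 FPKM in control testes, and the groups overlapped (log2 change -0.13 ± 0.12 SE, limma adjusted p = 0.553). Dnmt3b had 3.86, 3.65, 4.27 and 3.63 FPKM in valine testes, against 4.62, 5.04, 4.001 and 3.68 FPKM in control testes, also with overlap (log2 change -0.13 ± 0.11 SE, limma adjusted p = 0.498). The change of Dnmt3a was 0.03 with the length trend removed, so its direction was not fixed. Dnmt3c, a rodent methyltransferase that acts on young retrotransposons in male germ cells, averaged 3.29 ± 0.383 FPKM in valine and 3.18 ± 0.398 FPKM in control testes (limma adjusted p = 0.864).

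Dnmt3l varied most within a group among the 7 tested genes, with an SE of 0.2996 on the log2 change. It had 9.07, 2.39, 6.55 and 5.98 FPKM in valine testes, against 6.80, 9.27, 7.88 and 6.73 FPKM in control testes. Valine replicate 2 held the lowest value of all 8 samples and valine replicate 1 was second only to control replicate 2. The log2 change was -0.40 (limma adjusted p = 0.446), and -0.09 without valine replicate 2. A stretch of 67 bp of the Dnmt3l exons (2.24%) lies opposite exons of Aire, and whether counting used strand is not given in the sources used here.

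Tet3, the most abundant of the TET genes in every sample, had 1.10, 1.39, 1.35 and 0.966 FPKM in valine testes, against 1.79, 1.83, 1.71 and 1.38 FPKM in control testes. The groups overlapped only because control replicate 4 lay below valine replicate 2. The log2 change was -0.28 ± 0.13 (SE, limma adjusted p = 0.213), and with the length trend removed it was -0.13; the exon model of Tet3 is 16695 bp long. Tet2 had 0.607, 0.515, 0.460 and 0.586 FPKM in valine testes, against 0.695, 0.976, 0.465 and 0.711 FPKM in control testes, and Tet1 0.117, 0.236, 0.230 and 0.289 FPKM in valine testes, against 0.110, 0.339, 0.211 and 0.293 FPKM in control testes. Both overlapped between the groups. In a fit without the filter their log2 changes were -0.14 (Tet2, limma adjusted p = 0.643) and -0.02 (Tet1, limma adjusted p = 0.92).

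**Figure D3:**
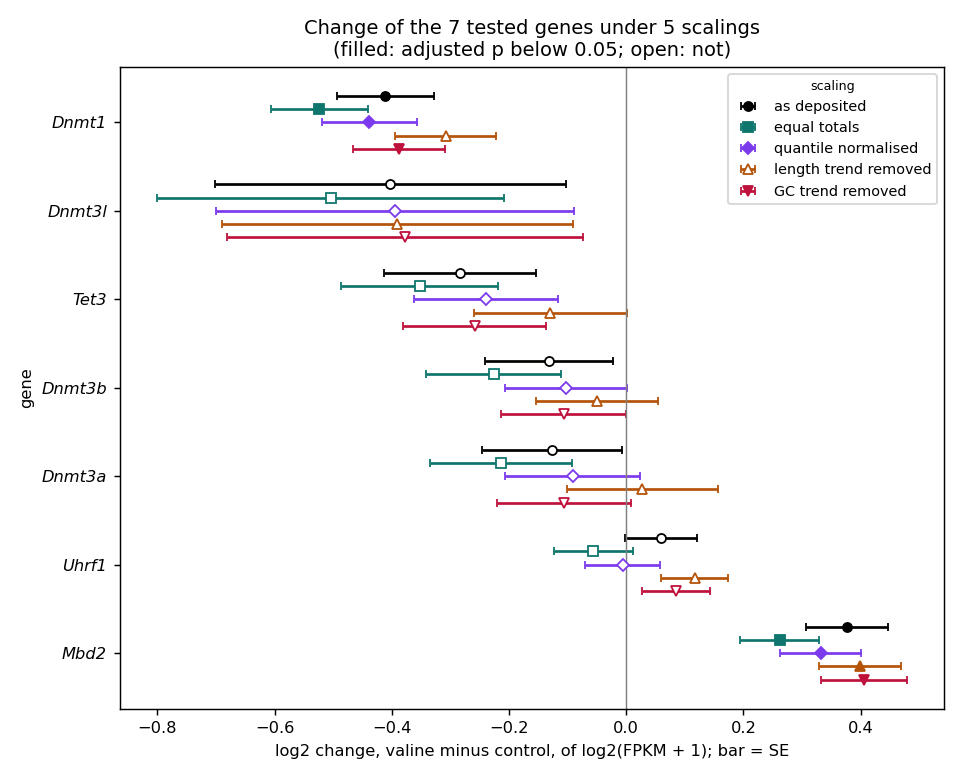
Log2 change of the 7 tested genes (horizontal axis, valine minus control, bars for the SE) as deposited, with equal totals, with quantile normalisation and with a length or GC trend removed. Filled symbols mark an adjusted p below 0.05: Mbd2 is filled under all 5 scalings, Dnmt1 under all but removal of the length trend (-0.31), and Uhrf1 and Dnmt3a lie on either side of 0.

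The pattern of Dnmt1 over the 8 samples, taken as log2(FPKM + 1) centred on the gene's mean, was nearest to those of Gm10358, Mapt and Urb1 among tested protein-coding genes, with root mean square differences of 0.0421, 0.0706 and 0.0722. Urb1, a factor of ribosome assembly, averaged 28.9 ± 1.03 FPKM in valine and 38.2 ± 3.68 FPKM in control testes. The pattern of Mbd2 was nearest to Rnf212, Rps27l and Drap1, with differences of 0.0521, 0.0586 and 0.0613. Rnf212, which acts at meiotic crossovers in mouse, averaged 13.0 ± 0.897 FPKM in valine and 10.3 ± 0.627 FPKM in control testes.

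Other genes of DNA methylation were read from the same fit in lists by role. Of 98 tested genes in these lists 8 fell, 2 rose and 88 did not pass. This is 10.2% called, against 8.73% of all tested genes, of which 4.41% were lower and 4.32% higher. The groups did not overlap for 21 of the 98 in the downward and 4 in the upward direction. Over all tested genes these shares were 9.39% and 8.99%. The 98 genes had a median change of -0.09, against 0.02 for all tested genes. Many of them have long exon models, and long genes leaned the same way. Over all tested genes the median change was -0.10 in the longest bin (5785 to 41155 bp) and -0.03 in the bin below it (3425 to 5784 bp). The part of exon length in the lean of the 98 was not tested. With equal totals 20 of the 98 were called, all of them lower, and with the length trend removed 6. Among 11 other methyl-CpG binding proteins none passed, and 2 had an unadjusted p below 0.05. Zbtb4, a zinc finger reader of methylated CpG, averaged 4.24 ± 0.209 FPKM in valine and 5.50 ± 0.649 FPKM in control testes (limma adjusted p = 0.0873). Among 9 partners of maintenance methylation none passed, and 3 had an unadjusted p below 0.05. Pcna averaged 84.3 ± 8.63 FPKM in valine and 70.4 ± 5.45 FPKM in control testes (limma adjusted p = 0.101), and Cdca7l 2.14 ± 0.0518 FPKM and 2.89 ± 0.431 FPKM (limma adjusted p = 0.131).

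The NuRD complex, the effector of Mbd2, had 2 of 12 genes lower and none higher, against 4.41% lower and 4.32% higher over all tested genes. Rbbp7, a histone-binding subunit, had 32.96, 35.1, 35.3 and 37.3 FPKM in valine testes, against 58.8, 70.5, 53.2 and 49.99 FPKM in control testes. The groups did not overlap, and Rbbp7 had a log2 change of -0.70 (limma adjusted p = 0.00758). Chd3, a remodelling ATPase of NuRD, averaged 24.2 ± 1.79 FPKM in valine and 32.6 ± 1.94 FPKM in control testes and fell by 0.42 (limma adjusted p = 0.0126). Both kept their call with any single library left out. The other 10 subunits, among them Hdac1, Hdac2, Chd4 and Rbbp4, did not pass. Rbbp4, which also binds histones, averaged 47.5 ± 2.35 FPKM in valine and 46.2 ± 1.73 FPKM in control testes (limma adjusted p = 0.721).

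Of 9 tested genes that act with or feed TET enzymes, Idh1 and Idh2 fell and none rose. Over all tested genes 4.41% were called lower and 4.32% higher. Idh1 and Idh2 are dehydrogenases that make 2-oxoglutarate, the co-substrate of TET enzymes, and also supply NADPH. Idh1 had 29.9, 31.6, 31.1 and 30.3 FPKM in valine testes, against 65.5, 79.4, 67.4 and 57.3 FPKM in control testes, a 2.14-fold fall (log2 change -1.10 ± 0.091 SE, limma adjusted p = 0.00126). Idh2, the mitochondrial form, averaged 2.96 ± 0.546 FPKM in valine and 6.89 ± 1.41 FPKM in control testes (limma adjusted p = 0.0101). Among 13 tested genes of demethylation and base excision repair, 2 rose and 1 fell. The glycosylase Neil3 rose to 6.70 ± 0.507 FPKM in valine testes, against 4.73 ± 0.220 FPKM in control testes (log2 change 0.42, limma adjusted p = 0.0187), and the repair polymerase Polb to 115.9 ± 5.27 FPKM, against 97.8 ± 3.42 FPKM (limma adjusted p = 0.0223). Neither passed with equal totals (limma adjusted p = 0.0529 and 0.0987). The ligase Lig3 fell to 79.1 ± 2.66 FPKM, against 95.7 ± 6.74 FPKM in control testes (limma adjusted p = 0.0295), and did not pass with the length trend removed (limma adjusted p = 0.17). Leaving out 1 library ended the call of Neil3 for control replicates 1 and 2 and valine replicates 1 and 2, that of Polb for control replicates 1 and 2 and valine replicates 1, 3 and 4, and that of Lig3 for control replicates 2, 3 and 4 and valine replicates 1, 2 and 4.

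Among 12 genes of histone methylation that guide or accompany DNA methylation, only Nsd2 passed. That is 8.33% of this list, near the 8.73% called over all tested genes. Nsd2, which methylates H3K36 and so marks sites for Dnmt3a, fell to 26.7 ± 1.27 FPKM in valine testes, against 33.2 ± 2.24 FPKM in control testes (limma adjusted p = 0.0272). Among 10 tested genes of germline de novo methylation, Piwil2, a PIWI protein of the piRNA pathway, fell to 72.0 ± 3.42 FPKM, against 88.9 ± 6.23 FPKM in control testes (limma adjusted p = 0.0242). Neither passed with the length trend removed (limma adjusted p = 0.151 and 0.0708), and leaving out 1 library ended the call of Nsd2 for control replicates 1, 2 and 4 and valine replicates 1, 2 and 4, and that of Piwil2 for control replicate 1 and valine replicates 1, 3 and 4. Among 8 tested genes of imprint protection none passed, and none had an unadjusted p below 0.05. Zfp57, which keeps imprints methylated, averaged 18.4 ± 1.59 FPKM in valine and 19.9 ± 1.72 FPKM in control testes (limma adjusted p = 0.478). Arid4b, a chromatin protein, averaged 8.63 ± 0.312 FPKM in valine and 9.43 ± 1.06 FPKM in control testes (limma adjusted p = 0.472).

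**Figure D4:**
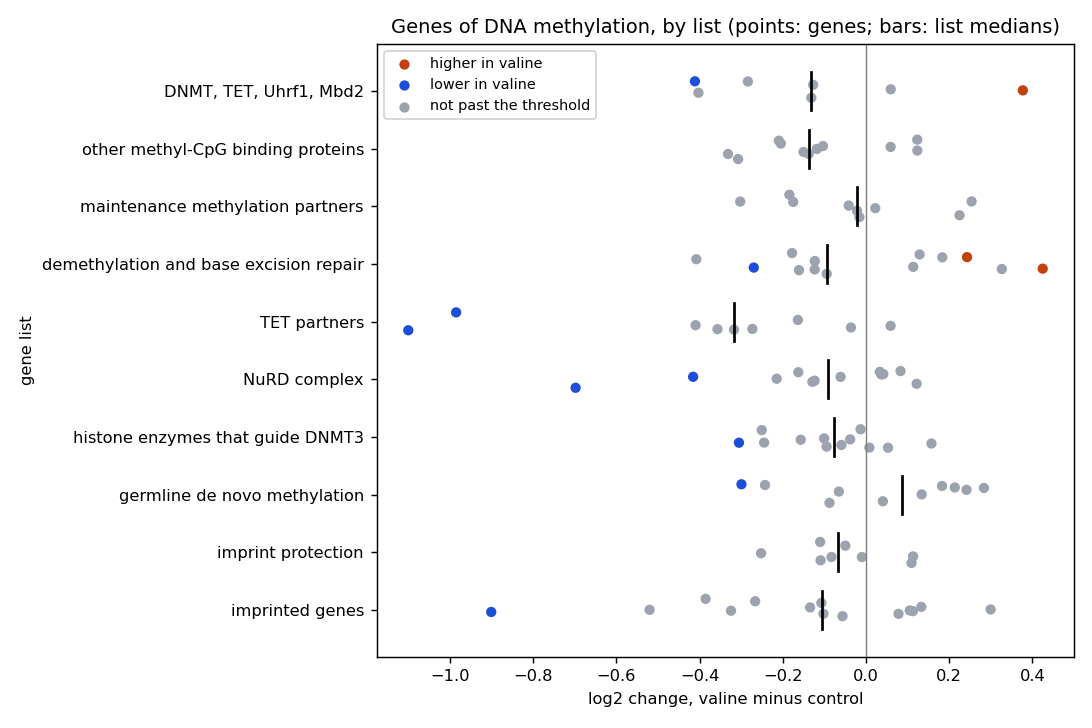
Log2 change (horizontal axis, valine minus control) of each tested gene in the lists of DNA methylation genes, with a bar for the list median and colour for genes past the threshold. The largest falls are Idh1 (-1.10) and Idh2 (-0.99) among TET partners, Meg3 (-0.90) among imprinted genes and Rbbp7 (-0.70) in NuRD, and most other points lie within 0.4 of 0.

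In bulk tissue, fewer cells of a type and less RNA per cell cannot be told apart, and marker genes of several cell types moved with the groups. For the counts below, 4.41% of all tested genes were called lower and 4.32% higher. Groups that did not overlap were found for 9.39% of them in the downward and 8.99% in the upward direction. Of 9 Leydig cell markers 8 fell, with a summed level of 487.0 to 794.5 FPKM in valine testes and 1629 to 2358 FPKM in control testes. Of 11 elongating spermatid markers 9 rose, with sums of 60311 to 72834 FPKM and 47800 to 49894 FPKM. Of 10 round spermatid markers 4 rose (Acrbp, Crem, Spaca7 and Tssk6) and Tssk2 fell, with overlapping sums of 2310.4 to 2671 FPKM and 2327 to 2621 FPKM. Of 12 spermatocyte markers Ccna1 rose and Stag3 fell, and the changes were positive for 10 and negative for 2. Their sums overlapped, at 1633.7 to 1666.4 FPKM in valine and 1550.8 to 1665.4 FPKM in control testes. Of 12 Sertoli cell markers 1 rose and none fell, with overlapping sums of 855.4 to 941.7 FPKM and 836.7 to 942.9 FPKM. Macrophage (4 of 8), endothelial (4 of 6), peritubular myoid (2 of 6) and stromal (4 of 6) markers also fell and none of these rose. The part of these cell types in the changes of Dnmt1, Mbd2, Idh1 and the others was not tested. Of 12 spermatogonial markers Zbtb16 and Kit fell and none rose, with overlapping sums of 159.9 to 183.3 FPKM and 147.0 to 167.9 FPKM. Another 3 (Gfra1, Dmrt1 and Uchl1) were higher in every valine sample than in any control sample but did not pass. The changes of this list were positive for 6 markers and negative for 6. None of 12 tested markers of S phase and proliferation passed, 5 had an unadjusted p below 0.05, and their sums overlapped (276.8 to 310.3 FPKM in valine and 277.4 to 302.6 FPKM in control testes). Epididymis markers summed to at most 2.44 FPKM in valine and 6.28 FPKM in control testes. FPKM totals were 1027662 to 1070524 in valine and 944659 to 974626 in control samples, and the sequencing depth relative to control replicate 1 was 0.866 to 0.992 in valine and 0.870 to 1.00 in control samples. Of 5 adipocyte markers Plin1 fell and none rose, and 3 were lower in every valine sample than in any control sample, although only Plin1 of these passed. Their sums overlapped, at 31.2 to 40.6 FPKM in valine and 30.5 to 85.8 FPKM in control testes, with the highest in control replicate 1.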

How the data were processed

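Per the labels' protocols, testes were frozen in liquid nitrogen, RNA was taken up in Trizol and libraries came from a TruSeq kit of Illumina. The authors deposited FPKM values for 55414 Ensembl genes in 8 samples. HISAT2 and GRCm39 are named in the submitters' processing notes; versions, the counting program, its use of strand and its annotation are not given in the sources used here. Columns were matched to samples by group and replicate number, with 0 left unused. FPKM keeps no absolute depth; relative depth was taken from the most frequent ratio of low values between samples.

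Exon lengths, GC content and exon overlaps came from GENCODE vM21. Symbols came from it as well, or from RefSeq where it gave none, and 52081 genes had a symbol. Promoters came from RefSeq GRCm38.p6. Genes that averaged 1 FPKM or more were tested as log2(FPKM + 1) with limma 3.58.1 in R 4.3.3 (treatment only, trended moderation, two-sided, Benjamini-Hochberg at 0.05). On simulated data for valine against control over 22077 genes it recovered 53% of 100 genes changed by 0.5 and 88% of 100 changed by 1 on the log2 scale, with 12 false calls among 153. The changed genes were drawn only from genes above a level that Dnmt3a and Tet3 did not reach, so these shares do not cover genes as low as those. The alternatives tried were a pseudocount of 0.1, no filter or a filter at 5 FPKM, 3 other scalings, array weights, other moderation, removal of a length or GC trend (loess span 0.3), the replicate number as a block, and leaving out each sample.

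The members and lists were chosen with earlier results of these data known. Named were all 9 members; in each list the 4 largest changes among called genes, or, with no call, the 2 genes of lowest p; and the 3 protein-coding genes nearest in pattern to each called member. Other genes, such as Dnmt3c, were named after their values were seen.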

Additional observations from a re-analysis of the deposited data

How the results depend on the processing

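Dnmt1 was lower under all 20 alternatives (-0.52 to -0.31 on the log2 scale) and past the threshold under 14, and Mbd2 was higher under all 20 (0.26 to 0.42) and past it under 19; the other 5 tested genes passed under none. With the length trend removed 1 of the members and 6 of the other DNA methylation genes were called, against 2 and 10 as deposited, and the change of Dnmt3a was 0.027. With equal totals the median change over all genes was -0.08, against 0.02 as deposited, Uhrf1 was at -0.057 and 20 other DNA methylation genes were called, all lower. With quantile normalisation Uhrf1 was at -0.0056. Over all genes, 954 were higher and 974 lower as deposited (49.5% of calls higher); the counts were 363 and 2022 with equal totals (15.2% higher), 398 higher with quantile normalisation (27.9% higher), 503 higher with moderation without a trend and 568 higher without a filter. Leaving out 1 sample gave 381 to 795 higher and 461 to 802 lower genes, 1 to 2 members and 4 to 9 other DNA methylation genes; the counts of these other genes moved by over 1.5 times without control replicates 1 and 2 and valine replicates 1, 2 and 4. The cause of these shifts was not tested.

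Samples with the same replicate number did not deviate together (correlations of -0.02, -0.04, 0.10 and 0.11 for numbers 1 to 4), so the numbers were not taken as pairs. With the replicate block 581 genes were higher and 489 lower, 4 other DNA methylation genes were called, and limma called 0 members, with unadjusted p below 0.05 for 2 (Dnmt1, adjusted p = 0.0714; Mbd2, adjusted p = 0.0536). The order of levels was the same in both groups for all 9 genes, also with equal totals. No depth or count was available to set limits for Tet1 and Tet2.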

Other observations

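Imprinted genes, whose expression depends on methylation set in the germ line, passed the filter in 14 of 20 cases, the highest being Peg10 at 17.5 ± 1.19 FPKM in valine and 18.3 ± 1.77 FPKM in control testes. Of the 14 tested, 1 fell and none rose, with a median change of -0.10, and 8.73% of all tested genes were called. The groups did not overlap for 5 of the 14 in the downward direction (Meg3, Nnat, Grb10, Sgce and Ndn) and for none in the upward direction. Over all tested genes these shares were 9.39% and 8.99%. Of these genes, Meg3, Grb10 and Sgce were in the longest length bin (5785 to 41155 bp), where the median change over tested genes was -0.10. Nnat, Sgce, Ndn and Meg3 averaged only 1.39, 1.32, 1.99 and 2.82 FPKM over all samples. Meg3, a long RNA of the Dlk1 and Meg3 imprinted cluster, had 1.73, 1.81, 1.33 and 1.53 FPKM in valine testes, against 4.68, 3.41, 5.82 and 2.22 FPKM in control testes, a log2 change of -0.90 ± 0.22 (SE, limma adjusted p = 0.0426). It passed in 1 of the 8 fits that left out a sample, that without control replicate 4, and neither with quantile normalisation nor with the length trend removed (limma adjusted p = 0.0555 and 0.103). Igf2 and Dlk1 were listed at a mean of under 1 FPKM in both groups, and H19 had 1.22, 1.42, 1.18 and 0.661 FPKM in valine and 0.583, 1.34, 0.843 and 0.974 FPKM in control testes.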
